A study of Mus musculus with 2 samples.

Results

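Chromatin accessibility was described at 10 genes that mark astrocytes in the mouse brain: the channel genes Aqp4, Gja1 and Gjb6, the cytoskeletal and calcium-binding protein genes Gfap and S100b, the enzyme genes Aldh1l1, Glul and Aldoc, the receptor gene Fgfr3 and the transcription factor gene Sox9. They were chosen by name as 10 of the 21938 protein-coding genes of the GENCODE M21 annotation (mm10), by a rule that uses no measured value, although the list was drawn up with earlier results of these libraries known. Each gene was examined over its body with 10 kb on either side, and over 500 bases on either side of every annotated transcript start. The values come from 2 DNase-seq libraries of the left cerebral cortex of adult female B6CASTF1/J mice aged 18 to 20 months, an F1 hybrid of the C57BL/6J and CAST/EiJ strains, with no treatment named. The libraries form 1 group with no control, other age or other genotype, so no test between conditions was possible. They are labelled as biological replicates 1 and 2 with separate biosamples but the same donor identifier, and the labels do not say whether they came from separate animals, so the spread between them may be technical.

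Astrocytes are the glial cells that line synapses and wrap blood vessels with their end feet. They take up glutamate and convert it to glutamine, buffer potassium and water, and share ions and metabolites through gap junctions. Gfap fills their processes as an intermediate filament and is a common sign of reactive astrocytes, while Sox9 and Fgfr3 act early in the choice between neurons and glia and remain present in mature astrocytes. In DNase-seq the enzyme cuts DNA where it is not packed by nucleosomes. A peak marks a region cut often, and a footprint marks a short stretch inside such a region that is cut less often than its surroundings, as happens where a protein covers it.

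The libraries held 132054 peaks in library 1 and 139799 in library 2, the median peak having a signal of 0.640 and 0.641. Signal is the deposited height of a peak in arbitrary units, and the depth behind it is unknown. Footprints numbered 271439 and 323715 in library 1 and library 2. Among genes that check the tissue, all 6 of a cortical transcription factor list and all 6 of a neuronal list had a promoter peak in both libraries, and none of 6 genes of blood, liver, heart and skin had one in either.

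Sequences of the accessible regions that the results below turn on are printed from the mm10 genome, 5′ to 3′ on the strand of the gene named, and outside annotated exons. Capitals mark bases covered by a footprint in both libraries, which in each of these regions form at least 1 block. The Gfap, S100b and Sox9 regions lie just upstream of a transcript start and are shown as the parts of promoter peaks outside exons, the S100b part being limited to its central 300 bases. The other 6 are the 3 strongest regions of Aldh1l1 away from starts, and the strongest such region of Gja1, of Glul and of Fgfr3.
Gfap upstream peak, chr11:102900913-102901100: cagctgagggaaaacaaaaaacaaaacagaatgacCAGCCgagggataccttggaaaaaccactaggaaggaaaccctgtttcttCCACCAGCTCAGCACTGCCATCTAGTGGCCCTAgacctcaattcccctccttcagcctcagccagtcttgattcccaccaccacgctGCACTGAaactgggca
S100b start peak, chr10:76253537-76253836: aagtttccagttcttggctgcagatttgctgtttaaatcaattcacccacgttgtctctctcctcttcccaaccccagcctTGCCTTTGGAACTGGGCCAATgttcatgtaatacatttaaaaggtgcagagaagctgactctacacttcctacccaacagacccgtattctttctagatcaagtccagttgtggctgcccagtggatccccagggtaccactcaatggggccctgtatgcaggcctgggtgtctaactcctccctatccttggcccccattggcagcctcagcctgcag
Sox9 start peak, chr11:112782001-112782223: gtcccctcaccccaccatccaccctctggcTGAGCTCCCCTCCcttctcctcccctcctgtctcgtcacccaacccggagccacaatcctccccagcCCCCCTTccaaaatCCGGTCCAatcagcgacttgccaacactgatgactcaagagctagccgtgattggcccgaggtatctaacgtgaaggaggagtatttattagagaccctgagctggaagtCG
Aldh1l1 intron peak A, chr6:90538041-90538240: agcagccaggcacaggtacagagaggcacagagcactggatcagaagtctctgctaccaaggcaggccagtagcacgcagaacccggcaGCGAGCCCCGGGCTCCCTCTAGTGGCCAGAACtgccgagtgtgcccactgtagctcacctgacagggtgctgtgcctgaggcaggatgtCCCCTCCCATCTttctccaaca
Aldh1l1 intron peak B, chr6:90506921-90507120: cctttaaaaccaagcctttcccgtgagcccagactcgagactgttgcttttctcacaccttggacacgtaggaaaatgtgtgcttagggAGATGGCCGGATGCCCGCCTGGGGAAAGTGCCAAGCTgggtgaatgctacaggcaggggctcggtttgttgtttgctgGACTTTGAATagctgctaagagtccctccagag
Aldh1l1 intron peak C, chr6:90515141-90515340: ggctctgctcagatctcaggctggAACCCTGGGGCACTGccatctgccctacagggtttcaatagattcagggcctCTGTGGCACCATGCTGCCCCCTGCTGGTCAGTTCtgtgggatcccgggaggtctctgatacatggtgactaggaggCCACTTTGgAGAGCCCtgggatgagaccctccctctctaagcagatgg
Gja1 upstream peak, chr10:56369221-56369420: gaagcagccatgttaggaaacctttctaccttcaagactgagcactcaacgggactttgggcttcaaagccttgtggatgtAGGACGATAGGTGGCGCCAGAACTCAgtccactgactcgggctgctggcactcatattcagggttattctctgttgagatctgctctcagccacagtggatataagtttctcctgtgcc
Glul upstream peak, chr1:153895021-153895220: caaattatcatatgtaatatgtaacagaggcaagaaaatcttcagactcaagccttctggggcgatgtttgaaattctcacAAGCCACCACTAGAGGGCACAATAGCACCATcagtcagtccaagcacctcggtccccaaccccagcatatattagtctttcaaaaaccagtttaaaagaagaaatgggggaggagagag
Fgfr3 downstream peak, chr5:33738001-33738220: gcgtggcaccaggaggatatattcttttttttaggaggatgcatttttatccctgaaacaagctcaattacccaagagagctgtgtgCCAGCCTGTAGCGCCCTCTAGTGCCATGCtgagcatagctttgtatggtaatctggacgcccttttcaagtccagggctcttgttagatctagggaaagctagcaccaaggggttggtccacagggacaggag

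Of the 10 astrocyte genes, 9 had a promoter peak, meaning a peak that overlapped the 500-base window of any annotated start, in library 1, in library 2 and in both. Over all protein-coding genes 64.5% had one in library 1, 66.5% in library 2 and 63.6% in both. The count depended on which start was meant: at the start of the transcript with the longest coding sequence, 7 of 10 genes had a peak in library 1, 6 in library 2 and 5 in both, against 59.6%, 61.6% and 58.7% of protein-coding genes. With all starts of protein-coding transcripts it was 7, 7 and 6 of 10, against 63.2%, 65.2% and 62.3%. The genes with a peak in both libraries at the longest coding start were Glul, Aldoc, Sox9, S100b and Fgfr3, and Gja1 was added when every coding start was used. Aqp4 and Gfap had no peak at any coding start in either library, and Aldh1l1 and Gjb6 had one in 1 library only. The coding-start counts were computed after the values at the starts had been seen.

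Taking the strongest promoter peak of each gene, the median over the 10 genes was 1.01 in library 1 and 1.14 in library 2, or 1.08 ± 0.0918 (mean ± SD, n = 2 libraries), with Aqp4 entered as 0. Over all protein-coding genes, those without a promoter peak entered as 0, the median was 1.31 and 1.55, and over genes with a promoter peak it was 3.08 and 3.32. Only Glul exceeded those medians of genes with a promoter peak. In descending order of the mean over both libraries, Glul stood at 4.26 ± 0.411, Aldoc at 2.48 ± 0.198 and Sox9 at 2.29 ± 0.210. Gfap stood at 1.45 ± 0.292 and S100b at 1.26 ± 0.0451. Aldh1l1 stood at 0.789 ± 0.297, Fgfr3 at 0.759 ± 0.0621, Gjb6 at 0.712 ± 0.0922, Gja1 at 0.444 ± 0.0605 and Aqp4 at 0 (SD, n = 2 for each). For Aldh1l1, Gjb6 and Gja1 the strongest peaks of the libraries were different regions that did not overlap. Their SD is therefore not the spread of a single region. The strongest start region matched between library 1 and library 2 had 0.551 and 0.999 for Aldh1l1, 0.647 and 0.444 for Gjb6, and 0.395 and 0.487 for Gja1. The ranges of the 2 libraries overlapped between Aldoc and Sox9, between Gfap and S100b, and between each neighbouring pair from Aldh1l1 to Gjb6, so the order within these groups is not settled by 2 libraries. In bulk tissue, fewer cells of a type and less accessibility per cell cannot be told apart, and this holds for every level given here.

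**Figure D1:**
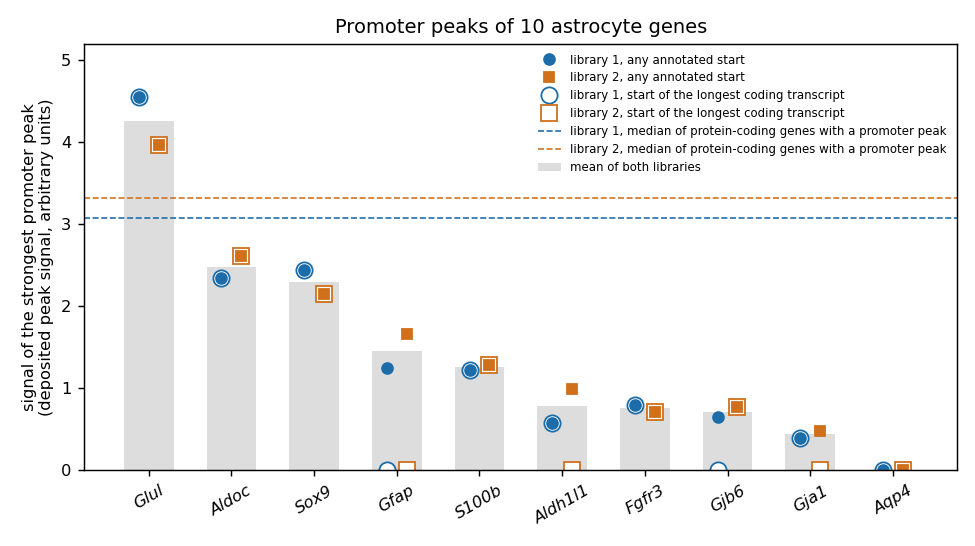
Signal of the strongest promoter peak (y axis, deposited peak signal in arbitrary units) of each of the 10 genes (x axis, ordered by the mean), with library 1 as circles, library 2 as squares and the mean of both as bars. For Aldh1l1, Gjb6 and Gja1 the strongest peaks of the libraries were different regions. Open symbols give the signal at the start of the longest coding transcript, and dashed lines the medians of 3.08 and 3.32 of protein-coding genes with a promoter peak. Only Glul lies above the lines, and open symbols drop to 0 for Gfap in both libraries and for Aldh1l1, Gjb6 and Gja1 in 1 library.

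Aqp4, the water channel of astrocyte end feet, lies at chr18:15389496-15410982 on the minus strand. None of its 7 start windows held a peak or a footprint in either library, and no base there had a per-base false discovery rate below 0.05. A single peak, chr18:15405201-15405400, was found in its whole window of gene body and flanks, with a signal of 0.939 in library 1 and 0.672 in library 2. This region lay in intron 1 of transcript Aqp4-202, 1543 bases upstream of the start of the longest coding transcript, and held 4 footprints in library 1 and 3 in library 2. It stood above the median of all peaks in both libraries, at the 74.4th and 58.8th percentile of peaks away from starts. The antisense gene AC133525.2 spans the same region, and DNase-seq does not assign it to either strand.

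Gja1, which encodes connexin 43, the main gap junction protein of astrocytes, lies at chr10:56377330-56402513 and has 6 annotated starts. Its start windows held 4 peaks in each library, and all were weak, from 0.245 to 0.402 in library 1 and from 0.259 to 0.487 in library 2, below the median of all peaks. At the gene's outermost start library 1 had a peak of 0.402 and 225 bases with a false discovery rate under 0.05, whereas library 2 had no peak and 0 such bases. At the internal start of Gja1-203 in intron 1 both libraries had peaks, the strongest 0.395 and 0.487. The strongest region of the Gja1 window was instead the printed upstream peak, centred 8009 bases before the gene start, with 1.42 in library 1 and 1.98 in library 2 (1.70 ± 0.399, SD, n = 2). It stood at the 87.7th and 93.1st percentile of peaks away from starts.

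Gjb6, which encodes connexin 30, another astrocyte gap junction protein, lies at chr14:57123303-57133611 on the minus strand. At its 2 coding starts library 2 had peaks of up to 0.777 and 470 and 521 bases under the false discovery rate threshold, and library 1 had no peak, footprint or such base at either. Both libraries shared a peak at the start of the noncoding transcript Gjb6-203, within intron 1 of the coding transcript, with signals of 0.647 and 0.444. No peak away from an annotated start was found in the Gjb6 window in either library.

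Gfap, the intermediate filament gene of astrocytes, lies at chr11:102887336-102900912 on the minus strand. Its 2 coding starts, those of Gfap-201 and Gfap-202, had no peak, no footprint and no base under the false discovery rate threshold in either library. The promoter peak counted for Gfap, 1.25 in library 1 and 1.66 in library 2, lay just upstream of the start of the noncoding transcript Gfap-203, which is 3712 and 3781 bases upstream of the coding starts. This is the printed Gfap upstream peak. Its longest footprint covered 35 bases in each library, chr11:102900983-102901017 in library 1 and chr11:102900981-102901015 in library 2. The strongest Gfap peak away from a start, 1.07 and 0.906, lay in the untranslated part of exon 9. The annotated gene Gm26668 spans the whole Gfap region, and a strong peak downstream of Gfap, 4.04 in library 1 and 4.43 in library 2, belongs to the starts of Ccdc103 and Eftud2.

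S100b, a calcium-binding protein gene, lies at chr10:76253853-76261159 and has 1 annotated start. Its promoter peak had 1.23 in library 1 and 1.29 in library 2, and held 3 and 5 footprints. A footprint of 23 bases in library 1 and 21 in library 2 began at the same base, chr10:76253618, and appears as the capitals of the printed sequence. The strongest peak of S100b away from the start that both libraries shared, 0.810 and 0.586, lay in the untranslated part of exon 3, where the gene Dip2a overlaps it.

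Aldh1l1, an enzyme of folate metabolism used widely to mark astrocytes, lies at chr6:90486427-90600203 and is the longest of the 10 genes. Its starts held only weak peaks, and the libraries differed over them. At the cluster of coding starts library 1 had a peak of 0.578 and library 2 none. At the outermost start, of the noncoding transcript Aldh1l1-202, library 2 had a peak of 0.561 and library 1 none, and this window is shared with Gm45901. A peak in intron 8 of the coding transcript Aldh1l1-201, within the window of another noncoding start, was found in both, with 0.551 and 0.999. The strongest regions of Aldh1l1 lay in intron 1 of Aldh1l1-202, upstream of the coding starts. Intron peak A had a signal of 2.94 in library 1 and 3.91 in library 2, peak B of 2.70 and 3.71, and peak C of 2.29 and 2.73, each above the 96th percentile of peaks away from starts. They were picked as the strongest of 16 and 18 such peaks in the window, whereas the percentile ranks all such peaks singly. The percentiles of the strongest Gja1 and Glul peaks away from starts have the same limit. Peak A is centred 12648 bases upstream of the coding starts, and the same 32-base footprint, chr6:90538130-90538161, was called in it in both libraries.

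Glul encodes glutamine synthetase, which makes glutamine from glutamate and ammonia. It lies at chr1:153899944-153909723 and had the strongest promoter peak of the 10 genes, 4.55 in library 1 and 3.97 in library 2, with 7 and 10 footprints. That window also overlaps starts of Teddm2 and Mir8114. A further region centred 4823 bases upstream had 2.38 in library 1 and 2.30 in library 2 (2.34 ± 0.0531, SD, n = 2), above the 95th percentile of peaks away from starts in both. The same 31-base footprint, chr1:153895102-153895132, was called there in both libraries. Only library 2 had peaks, of 0.499 and 0.567, at the internal starts of Glul-202 and Glul-203.

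Aldoc, the aldolase isoform of the brain, lies at chr11:78322968-78327781. Its promoter peak had 2.34 in library 1 and 2.62 in library 2, was centred over the untranslated part of exon 1, and held 5 footprints in each library. A second region at the internal start of Aldoc-202 had 0.844 and 0.746. Away from starts, library 2 had a peak of 0.524 and library 1 had none. The strongest region in the Aldoc window, 5.11 and 5.84, belonged to the start of the neighbouring gene Pigs.

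Fgfr3, a fibroblast growth factor receptor gene, lies at chr5:33721674-33737068 and has 14 annotated starts. The outermost of them shared a peak of 0.803 in library 1 and 0.715 in library 2, with 2 footprints in each. The printed region downstream of the gene was stronger, 1.12 in library 1 and 1.65 in library 2 (1.39 ± 0.375, SD, n = 2). It carried a footprint of 31 bases in library 1 and 29 in library 2 that ended at the same base, chr5:33738116. A peak in intron 2 had 1.05 and 0.795, and another across intron 7 and exon 8 had 0.810 and 1.11.

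Sox9, a transcription factor gene of neural progenitors and astrocytes, lies at chr11:112782224-112787760 and has 1 annotated start. Its promoter peak had 2.44 in library 1 and 2.15 in library 2, with 6 footprints in each, in a window that also overlaps a start of BC006965. A region at a further start of BC006965, 653 bases upstream of Sox9 in library 1 and 593 in library 2, had 1.90 and 1.25. The Sox9 body itself was covered by several weaker peaks, up to 0.667 in library 1 and 1.02 in library 2. Relative to the 200 protein-coding genes of nearest length, the number of peaks over Sox9 and its flanks, 9 and 7, stood at the 95.3rd and 88.8th percentile. These numbers include the region near BC006965, and with overlapping peaks merged they were 8 and 7.

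**Figure D2:**
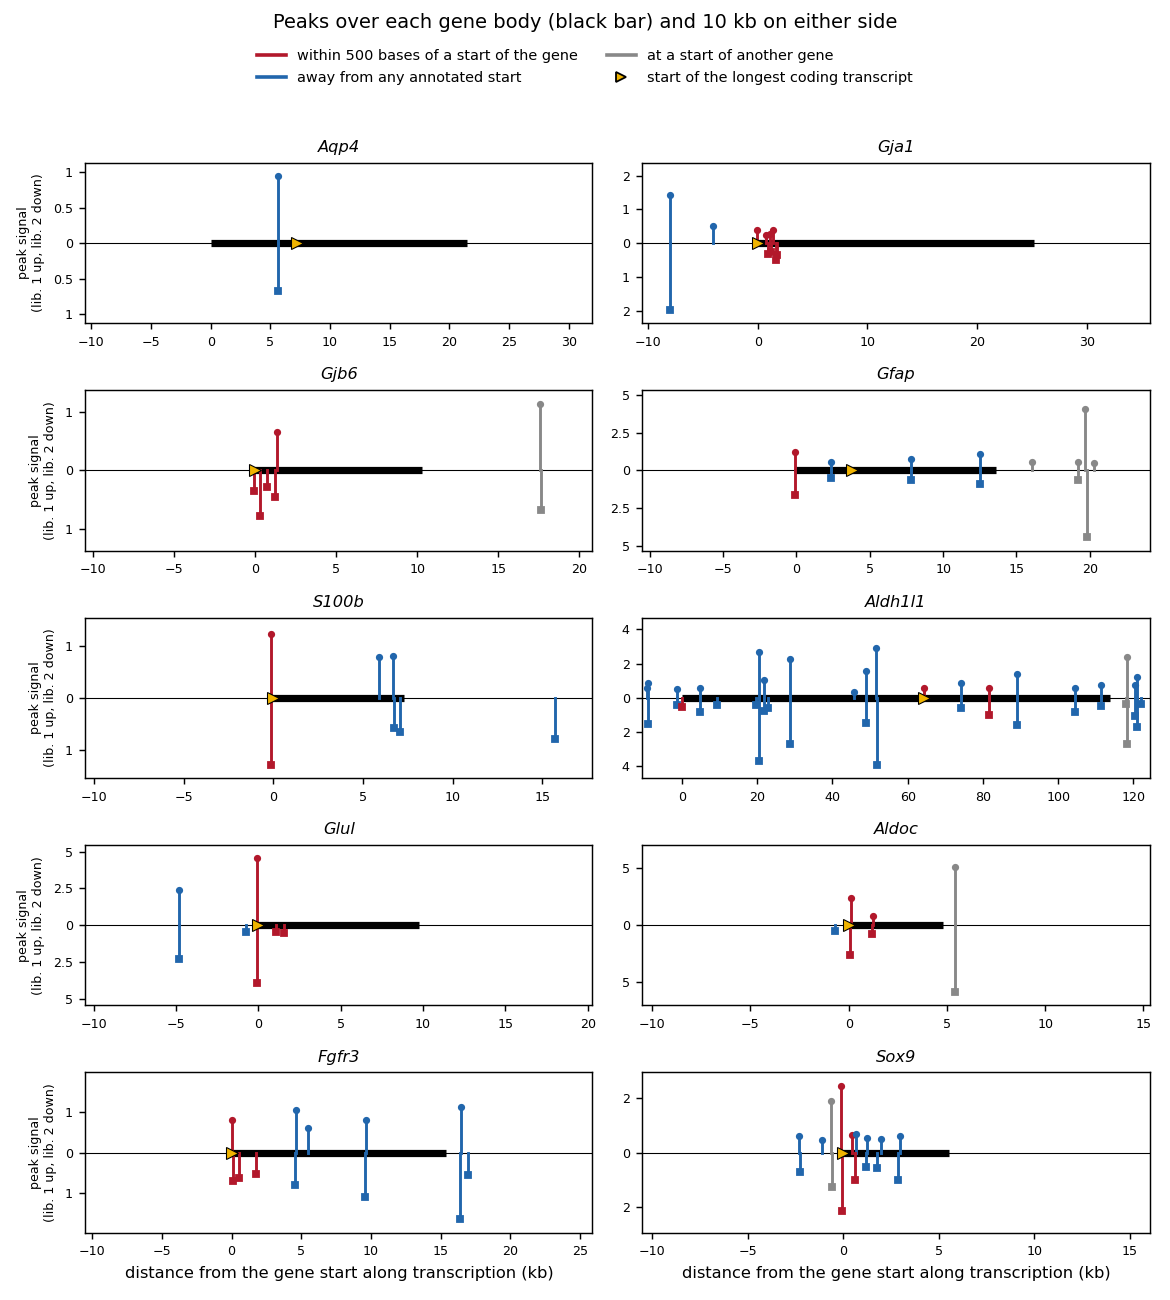
Peaks over each of the 10 genes by distance from the gene start along the direction of transcription (x axis, kb), with signal upward for library 1 and downward for library 2 (y axis, arbitrary units, scaled per gene). Red stems lie at starts of the gene, blue stems away from any start and grey stems at starts of other genes, and the yellow mark is the start of the longest coding transcript. The Gfap peak at the gene start and the Aldh1l1 peaks near 20 and 50 kb lie upstream of the yellow marks of these genes, and Aqp4 has 1 peak only.

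In 4 of the 10 genes, Aqp4, Aldh1l1, Gja1 and Fgfr3, the strongest peak away from starts exceeded the strongest promoter peak in both libraries. Over all protein-coding genes this was the case for 27.8%. For Aldh1l1 the strongest such peak had 2.94 and 3.91, while its promoter peaks reached 0.578 and 0.999 in library 1 and library 2. For Glul, Sox9, Aldoc, S100b, Gfap and Gjb6 the promoter peak was the stronger in both libraries. These comparisons took any annotated start, and for Gfap the promoter peak lay at a noncoding one. At its coding starts Gfap had no peak in either library, while its strongest peak away from starts had 1.07 and 0.906. Gjb6 had no peak at a coding start in library 1 and none away from starts. The median over the 10 genes of the strongest peak away from starts was 1.00 in library 1 and 0.962 in library 2, where Gjb6 in both libraries and Aldoc in library 1 entered as 0. Among the 15982 and 16280 protein-coding genes that had such a peak in library 1 and library 2 it was 1.17 and 1.26. Genes without such a peak were left out of these medians rather than entered as 0, so they are not like the medians of the 10 genes. Whether the 10 genes lie below protein-coding genes in this respect cannot be read from them.

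**Figure D3:**
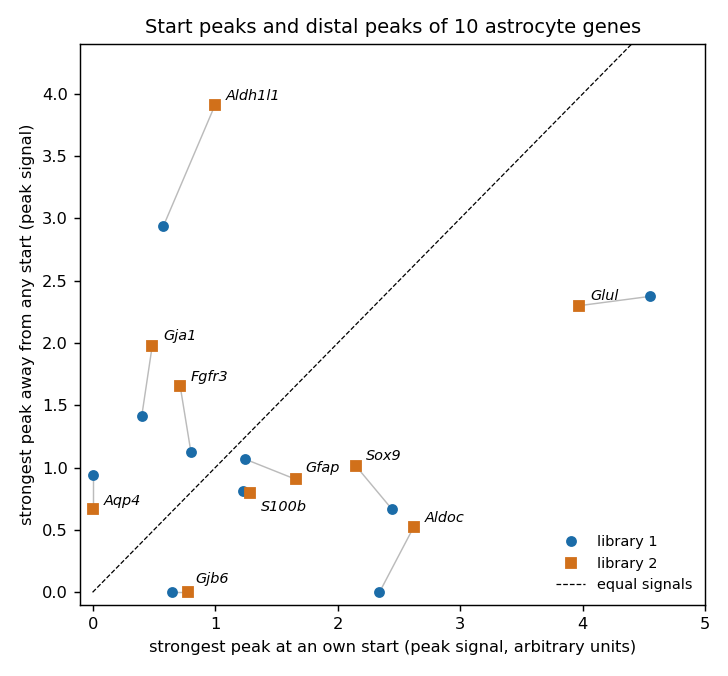
Strongest peak at a start of the gene (x axis) against the strongest peak away from any start (y axis), both as deposited peak signal in arbitrary units, for the 10 genes in library 1 (circles) and library 2 (squares), joined by grey lines. Aldh1l1, Gja1, Fgfr3 and Aqp4 lie above the dashed line of equal signals in both libraries, and the other 6 genes below it. Starts of noncoding transcripts are included, and the Gfap start peak lies at such a start.

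The windows of the 10 genes held 58 peaks in library 1 and 66 in library 2. Of these, 15 and 22 lay at starts of the 10 genes, 8 and 7 at starts of other genes, and 35 and 37 away from any start. Aldh1l1 alone held 19 and 22, and Aqp4 held 1 in each. Set against the 200 protein-coding genes of nearest length, the median percentile of the peak number was 66.1 in library 1 and 73.8 in library 2. Aqp4 was lowest at 14.8 and 14.0, and Aldh1l1 stood at 94.3 and 94.0, with the peaks of neighbouring genes included. Footprints over the 10 windows numbered 152 and 176, of which 140 and 160 lay in peaks. All but Aqp4, 9 of 10 genes, had a footprint in the window of any annotated start in both libraries, against 61.5% of protein-coding genes. This count also depended on the start. At the longest coding start Gfap had no footprint in either library, Aldh1l1 and Gja1 had 1 in library 1 only, and Gjb6 had 2 in library 2 only. The share of protein-coding genes with a footprint at that start was not computed. Bases with a false discovery rate under 0.05 totalled 17512 and 21559, from 361 and 297 over Aqp4 to 5253 and 6820 over Aldh1l1.

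Of the 58 library 1 peaks, 46 overlapped a library 2 peak (79.3%, exact 95% binomial interval 66.6 to 88.8), against 77.8% of all library 1 peaks. Of the 66 library 2 peaks, 45 overlapped a library 1 peak (68.2%, 55.6 to 79.1), against 73.2% of all library 2 peaks. These shares were near those of all peaks, and the intervals cover only the counting of regions. Peaks without a partner were the weaker ones, with medians of 0.517 and 0.524, against 0.912 and 1.01 for peaks with a partner. Log2 ratios (library 1 over library 2) of the 45 matched pairs ranged from -0.86 to 0.74, with -0.13 as their median and 0.43 as their SD. Library 1 was higher in 21 pairs and library 2 in 24, and no pair differed by more than 2-fold, against 1.59% of the 99347 matched pairs of all peaks. The widest gap of the astrocyte genes, -0.86, was at the internal noncoding start of Aldh1l1, and the S100b promoter pair differed by -0.07.

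**Figure D4:**
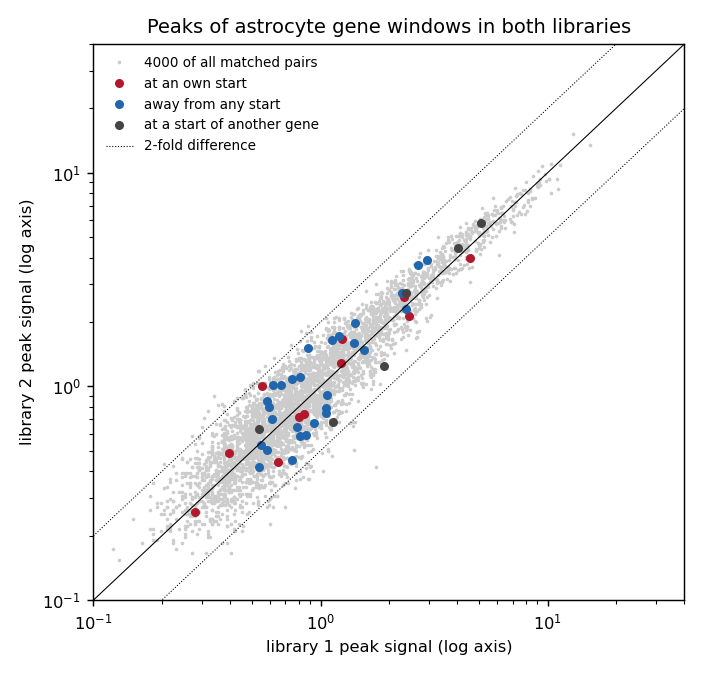
Signal of matched peaks in library 1 (x axis) and library 2 (y axis), both on log axes, for the 45 pairs in the windows of the 10 genes (coloured by position) and for 4000 pairs drawn from all matched peaks (light grey). The astrocyte gene pairs lie between the dotted lines of a 2-fold difference.

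Base composition at the gene start varied among the members. The ratio of observed to expected CpG over 500 bases on either side of the gene start had a median of 0.394 in the 10 genes and of 0.552 in all protein-coding genes, and the GC content was 52.6% and 54.7%. Sox9 (0.804), Glul (0.697) and Fgfr3 (0.684) had the highest CpG ratios of the 10 genes, and S100b (0.169), Aldoc (0.228) and Gfap (0.235) the lowest. The gene start is that of a noncoding transcript for Gfap and Aldh1l1, and at their longest coding starts the ratio was 0.402 and 0.340. CpG ratio and promoter signal did not run in the same order: Aldoc had the second strongest promoter peak with a low ratio, and Fgfr3 had a weak peak of 0.803 and 0.715 with a high ratio. The ratio was taken at the gene start only, and promoter signal at any annotated start.

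Short motifs were counted on both strands of 300-base promoters, 250 bases before to 50 after the start nearest the strongest promoter peak, or the gene start for Aqp4. For Aldh1l1 that start was a noncoding one downstream of the coding starts, and its 300-base promoter did not overlap the peak in either library. For Gfap it was the noncoding start upstream of the coding starts, and for Gja1 and Gjb6 a coding start downstream of the gene start. Matches given for these genes are therefore not at the start of the longest coding transcript. The patterns were TTGGC and the longer palindrome that contains it for NFI proteins, ACAAAG or ACAATG for SOX proteins, TTCNNNGAA for STAT proteins and TGACTCA for AP-1. The others were TGACGTCA for the cyclic AMP response element, GTTGCCA for RFX proteins, TAATTA for homeobox proteins, GGGCGG for the GC box, TATAAA for the TATA box, CAGCTG for the E-box, TGGGAA for RBPJ, and a CTCF core sequence. NFI TTGGC was present in 5 of the 10 promoters (Aqp4, Sox9, Glul, S100b and Aldoc), against 48.9% of all promoters. In 4 of the 10 promoters (Sox9, Glul, S100b and Aldoc) a match touched a footprint of at least 1 library, against 14.0% of all promoters. Among promoters with the motif, this was 4 of 5, against 3081 of 10726 over all protein-coding genes. The GC box was present in 4 (Gja1, Glul, Gjb6 and Fgfr3; all promoters 47.4%) and RBPJ in 4 (Gfap, Aldh1l1, Gja1 and Aldoc; 24.5%). The E-box was present in 3 (Gfap, Glul and Fgfr3; 15.8%), AP-1 in 2 (Aldh1l1 and Sox9; 4.33%) and SOX ACAATG in 2 (Aqp4 and Aldh1l1; 10.1%). The other patterns had no match in these windows. Among these further motifs, a match touched a footprint for the GC box in Glul (all promoters 33.5%) and for RBPJ in Aldoc (4.60%).

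After the sequences had been seen, 17 regions outside exons were searched again, the 9 printed ones among them and none from Aqp4 or Aldoc. They were searched with a 12-letter CTCF consensus and with the longer NFI pattern, each with up to 1 mismatch. CTCF is the zinc finger protein found at chromatin loop boundaries, and NFI proteins are transcription factors of astrocyte development. Of the 17 regions, 12 held bases covered by footprints of both libraries. A CTCF match was found in 6 regions and lay wholly within such bases in 5, all of them printed. The sixth, in a weaker Sox9 peak upstream of the gene, touched no such base. Bases 102 to 113 of the Gfap upstream peak read GCCATCTAGTGG and bases 92 to 103 of Aldh1l1 intron peak C read GCCCCCTGCTGG, both with 0 mismatches. Bases 88 to 99 of the Glul upstream peak read CCACTAGAGGGC, also with 0 mismatches and, along the strand of each gene, in the other orientation than those 2. Gfap lies on the minus strand, so on the chromosome its match runs in the same direction as that of Glul. Aldh1l1 intron peak A and the Fgfr3 downstream peak each held a match with 1 mismatch, TCCCTCTAGTGG and GCCCTCTAGTGC. Aldh1l1 intron peak B and the Gja1 upstream peak had no match at this limit. Of the strongest peaks away from starts of the 9 genes that had one, 3 (Aldh1l1, Glul and Fgfr3) held a CTCF match. Such a match was present in 200-base windows of 15.4% of all library 1 peaks away from starts, in 35.0% of the strongest 5% of these, and in 5.42% of promoters. A match wholly within footprints of both libraries was present in 8.32%, 32.2% and 1.81% of these. The count in the 9 genes was not tested against these shares.

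In the S100b promoter the capitals of the printed sequence hold TTGGAACTGGGCCAA at bases 87 to 101, a match to the longer NFI pattern with 1 mismatch that lay wholly within footprints of both libraries. It was the only NFI match at this limit in the 17 regions. Outside these regions, the 200-base window around the strongest Aldoc peak away from starts, found in library 2 only, also held an NFI match at this limit. It was the only 1 of the 9 strongest peaks away from starts with such a match. Such a match was present in 0.971% of promoters and in 1.98% of peaks away from starts, and lay wholly within footprints of both libraries in 0.191% and 0.348% of them. The CTCF and NFI matches are letters in the mm10 reference sequence, and no binding was measured. The CAST/EiJ alleles of these hybrid mice were not examined and may differ at the matches.

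A list of 24 further genes with known roles in astrocytes was examined in the same way. Of these, 23 had a promoter peak in both libraries (63.6% of protein-coding genes), and Slc7a10, an amino acid transporter gene, had none in either. Their median promoter signal, with Slc7a10 entered as 0, was 1.42 in library 1 and 1.28 in library 2. Over all protein-coding genes, those without a promoter peak entered as 0, it was 1.31 and 1.55. Over genes with a promoter peak it was 3.08 and 3.32. The strongest were Clu, which encodes the secreted chaperone clusterin (5.39 ± 0.00968), Nfia, an NFI transcription factor gene (4.91 ± 0.216), Kcnj10, a potassium channel gene (2.14 ± 0.0198), and Slc1a2, the main glutamate transporter gene (1.98 ± 0.141). The weakest with a peak were Acsbg1, an acyl-CoA synthetase gene (0.473 ± 0.0330), Mlc1, a membrane protein gene of end feet (0.508 ± 0.109), and Slc1a3, another glutamate transporter gene (0.565 ± 0.134; SD, n = 2 for each). In 13 of the 24 the strongest peak away from starts exceeded the promoter peak in both libraries, against 27.8% of protein-coding genes. In lists of 6 genes each, this was also the case for 3 genes of neurons, 5 of oligodendrocytes, 6 of microglia, 3 of endothelium, 3 of the cortical list and 5 from outside the brain. A promoter peak in both libraries was present for 3 genes of oligodendrocytes, 1 of microglia and 1 of endothelium. All lists were chosen with results of these libraries known, so these counts are descriptions.

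**Figure D5:**
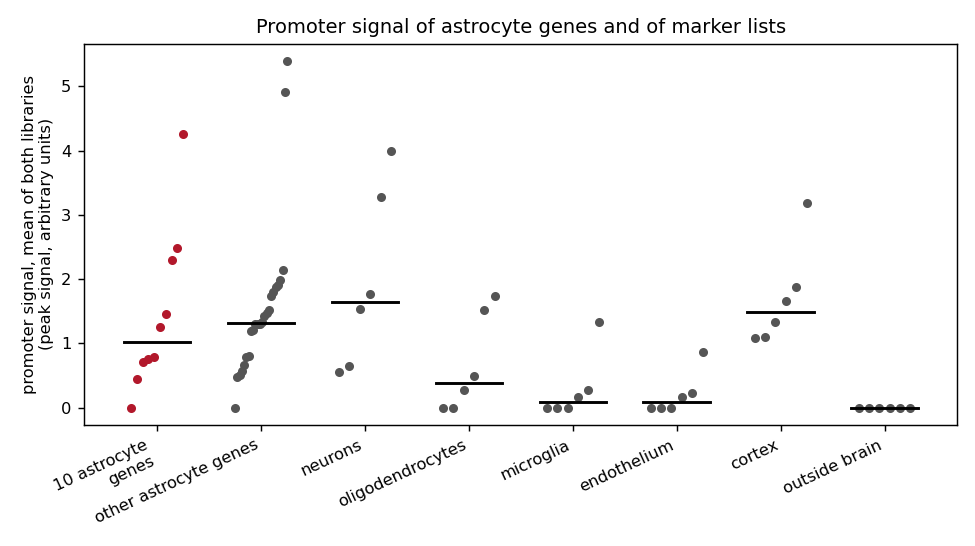
Promoter signal averaged over both libraries (y axis, arbitrary units) of single genes, as points, for the 10 astrocyte genes (red), the 24 further astrocyte genes and lists of 6 genes each of other cell types and tissues (x axis). Black lines are medians over the genes of a list, and genes without a promoter peak are at 0, as are all 6 genes of the list from outside the brain.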

How the data were processed

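Accessible DNA of the left cerebral cortex of adult female B6CASTF1/J mice was measured by DNase-seq in 2 libraries. Per the file headers, peaks, footprints and per-base false discovery rates were made by the authors for each library from its own mm10 alignments. The sources used here do not give the aligner, the peak caller, versions, read numbers or how strain differences were treated in placing reads. The deposited peak signal (column 7 of the longer of 2 peak lists) has no stated unit, and its values are never negative. The deposited false discovery rates (p-value type) list only bases under 0.05, and the deposited footprints carry 0.01 in every line, read as a threshold.

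Genes, starts and exons were from GENCODE M21. Peaks overlapping a window by 1 base were counted with Python 3.11.15, numpy 2.4.6 and pandas 2.3.3, and exact binomial intervals with scipy 1.17.1. Figures were drawn with matplotlib 3.10.9. Overlap, sharing, percentile and motif code was tested on simulated data. Sequences were read from RefSeq's copy of the mm10 assembly. Signals of both libraries are given with mean and SD (n = 2), and no test was made. Each member was named, with its strongest peak at a start and away from starts, and of the further astrocyte genes the 4 highest, the 4 lowest and those without a promoter peak. Other peaks and neighbouring genes were named after their values were seen. The members and lists were chosen with earlier results of these data known. Windows, flanks, peak lists, thresholds, overlap and left-out libraries were varied.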

Additional observations from a re-analysis of the deposited data

How the results depend on the processing

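No paired analysis was possible because both libraries belong to 1 group. Of 44 recomputed values, 30 stayed within set limits and 14 moved further. The limits were 1.5 times the reported count or, for other values, the SD of the libraries or the interval of the share. For the median promoter signal and the median percentile, leaving out a library could not exceed the limit. Either library always lies within that SD of their mean, so those values among the 30 say nothing about stability. The count of members whose promoter had a peak in both libraries, 9 as reported, was 5 when only the longest coding start was used and 6 with all coding starts, alternatives added after the data were seen. The reported share lay above that of protein-coding genes, and both of these lay below it (58.7% and 62.3%). The number of peaks in the windows, 62 as the mean of both libraries, was 124.5 with flanks of 50 kb and 37.5 in the shorter peak lists. The percentage of library 1 peaks shared was 60.3 when an overlap of 50% of both peaks was required. The median promoter signal was 1.50 when the peaks of a gene were summed, and 0.718 at coding starts alone, also added later. Without flanks the footprints numbered 89.5 and the bases under the false discovery rate threshold 11188.5, and a threshold of 0.001 left 11029.5 such bases. The median percentile of the peak number was 84.4 without flanks, 60.4 with 50 kb and 63.5 in the shorter lists. Gene and motif pairs numbered 20, and 36 with 500 bases on each side of the start, and 6 when a match had to touch a footprint. Depth limits what an absent peak means: where no peak was listed, as at the Aqp4 and Gfap coding starts, accessibility was not detectable at an unknown depth. With 2 libraries the SD is imprecise.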
